A study of Mus musculus with 2 samples.

Results

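CD (cluster of differentiation) genes encode proteins of the cell surface that antibodies are used to recognise, and their presence or absence serves to name blood cell types. The set was taken as every protein-coding gene of the mm9 annotation whose symbol is Cd, a number and at most 2 letters. This gave 84 of 22380 genes, placed by textbook role in 8 groups: 11 red cell, progenitor and complement genes, 7 tetraspanins, 8 genes of antigen presentation and costimulation, 6 leukocyte-wide genes, 6 B cell genes, 18 T and NK cell genes, 24 myeloid and dendritic cell genes and 4 others. Many CD antigens carry other symbols and are outside the set. As background, blood progenitors carry adhesion molecules and stem cell antigens that are lost or kept in a lineage-specific way, mature red cells keep inhibitors of complement and the self-marker Cd47, and antigens such as the chains of the T cell and B cell receptors are restricted to lymphocytes. Chromatin at an active gene start is usually open, and the nuclease DNase I cuts it there, though an open start does not show that the protein is made.

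The peaks come from DNase-seq of mouse erythroid cells in 2 states. G1E cells are a male strain 129 erythroid progenitor line that lacks Gata1, a transcription factor of red cell maturation, and were left untreated. G1E-ER4 cells are described as Gata1-restored erythroid cells, also male and strain 129, and were differentiated for 24 h with 10 nM beta-estradiol. For both, the age label reads E0, a stem cell origin. Each state was 1 sample with 2 peak lists of 100000 peaks each, and whether the lists of a state were separate cultures is not said. The line, its Gata1 copy, the estradiol and the sample all differ between the states and cannot be told apart, and with 1 sample per state no test between the states was made. Each value below is a percentile, the place of a peak's signal within its own list (100 for the strongest peak), and values are given for G1E-ER4 lists 1 and 2 and then G1E lists 1 and 2. A percentile is a rank, not an amount of accessibility, and the read depth is unknown. In a bulk sample, fewer cells with an open site and less opening per cell cannot be told apart. G1E-ER4 list 1 stands apart: gene starts made up 61.0% of its strongest 10% of peaks, against 81.4, 75.0 and 74.2% in the other lists, so results that rest on it are given with and without it. As a check of the labelled cell type, 9 of 11 erythroid marker genes had a peak at a start in all 4 lists, the exceptions being Hbb-b1 and Alas2. The same held for 4 of 4 megakaryocyte, 3 of 8 T cell, 2 of 6 B cell, 1 of 6 myeloid and 0 of 4 mast cell markers. Over all protein-coding genes the share was 52.4%, and the check does not set erythroid apart from megakaryocyte markers.

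Fewer CD genes than other genes had an open start, and those that had one were mostly not lineage receptors. A start counted as open in a list when a peak reached within 1 kb of any annotated start. In all 4 lists this held for 24 of 84 CD genes (28.6%), against 52.4% of all protein-coding genes. In no list did it hold for 32 CD genes (38.1%), against 27.3% of all genes. When the summit itself had to lie within 1 kb, 19 CD genes were open in every list and 35 in none. The shares of all genes were not computed under that rule. By list, 34, 44, 38 and 31 CD genes had a peak at a start (40.5, 52.4, 45.2 and 36.9%), against at least 59.8% of all genes in every list. G1E-ER4 list 2 had the highest count for all genes too, with 15004 of 22380. Among the 24 open in every list, the median percentile was 88.2 and 91.3 for G1E-ER4 and 91.7 and 89.7 for G1E, somewhat below the 91.5, 94.5, 93.8 and 93.9 of all genes open in every list. The groups ranged from 5 of 7 tetraspanins (71.4%) and 7 of 11 red cell, progenitor and complement genes (63.6%) through 4 of 8 antigen presentation genes (50.0%) to 2 of 18 T and NK cell genes (11.1%) and 1 of 24 myeloid and dendritic cell genes (4.17%). The leukocyte-wide and B cell groups had 1 of 6 genes each, and the other genes 3 of 4. The groups were drawn up with earlier results of these data known, and no test was made between them.

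**Figure D1:**
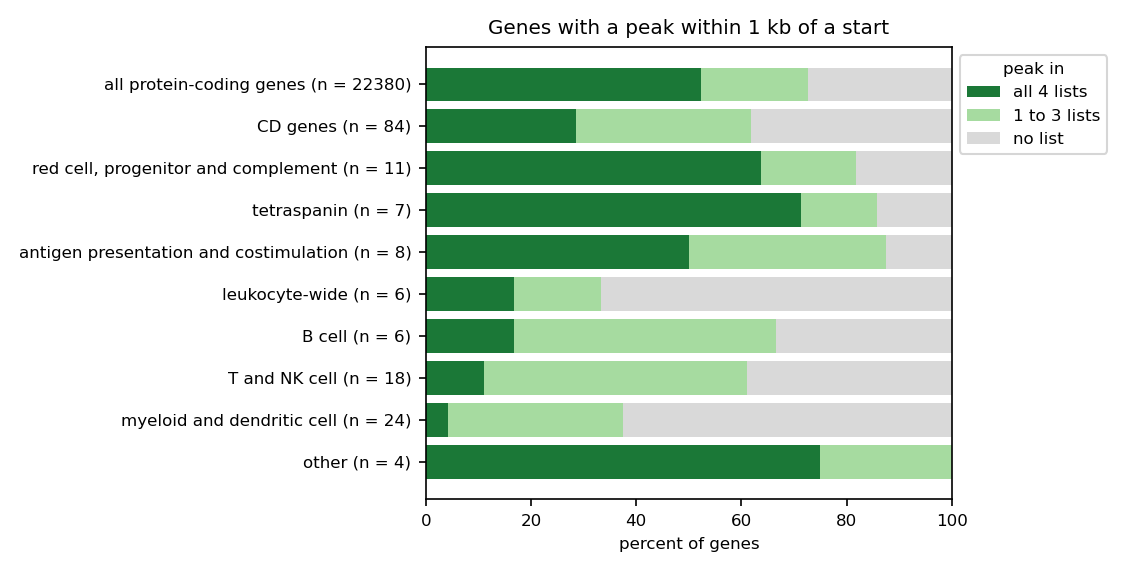
Share of genes (horizontal axis, percent) with a peak within 1 kb of a start in all 4 lists, in 1 to 3 lists or in no list, for all protein-coding genes, all CD genes and each group of CD genes. The tetraspanin and red cell groups have the widest bars for all 4 lists apart from the group of 4 other genes, and 15 of 24 myeloid and dendritic cell genes have no peak.

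In the red cell, progenitor and complement group, Cd47, Cd164, Cd46, Cd59a, Cd55, Cd24a and Cd44 had an open start in all 4 lists, and Cd36 and Cd93 had none in any. Cd47, the signal that protects a cell from being engulfed, lay at percentiles 91.7 and 98.1 for G1E-ER4 and at 95.8 and 95.5 for G1E. Cd164, a sialomucin of progenitors, lay at 89.7, 95.8, 93.7 and 90.1, and Cd46, a cofactor in complement breakdown, at 89.8, 93.8, 91.7 and 91.8. For these 3 genes the states overlap and every list ranks the start among its strong peaks. Cd59a, which blocks the membrane attack complex of complement, was weaker at 74.3, 82.1, 80.9 and 73.2. Its tandem copy Cd59b had no peak in G1E-ER4 list 1 and lay at 65.3, 21.7 and 57.9 in the others. Around the summits of the Cd59a and Cd59b start regions, 70.7 and 72.4% of 20-base words occur once in the genome. Where the other words recur was not looked at, so whether tags of one copy were placed on the other was not tested. Cd34, the antigen of stem and progenitor cells, had a single weak start peak, at 2.30 in G1E list 1. Cd36 is a fatty acid and thrombospondin receptor and Cd93 a receptor of endothelial and early progenitor cells, and Cd93 had no peak within 10 kb either.

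Cd55, Cd24a and Cd44 ranked lower in both G1E-ER4 lists than in both G1E lists, with G1E-ER4 list 1 lowest. Cd55, the decay-accelerating factor that disables complement convertases, lay at 72.4 and 94.5 for G1E-ER4 against 95.3 and 95.2 for G1E. Cd24a, an antigen of immature red cells and lymphocytes, lay at 71.1 and 91.5 for G1E-ER4 against 95.5 and 95.4 for G1E. Cd44, the hyaluronan receptor, lay at 50.3 and 89.7 for G1E-ER4 against 91.8 and 95.1 for G1E. On this scale G1E-ER4 list 2 sits close under G1E in all 3. The difference of means, G1E-ER4 minus G1E, was -11.7 for Cd55, -14.1 for Cd24a and -23.5 for Cd44, and without G1E-ER4 list 1 it was -0.683, -3.92 and -3.75. Ranked among the starts open in every list instead of among all peaks, Cd55 stood at 50.2 in G1E-ER4 list 2 against 61.3 and 59.3 for G1E. On that scale Cd24a stood at 29.1 in the same list against 62.7 and 61.3, and Cd44 at 22.7 against 37.1 and 58.9. List 2 was then below both G1E lists for all 3 genes, most clearly for Cd24a. For Cd44 the G1E lists were themselves far apart.

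The 150 bases upstream of these starts are shown because the open site covers them in every list. They were read from the mm9 genome on the strand of the gene, 5′ to 3′, and end 1 base before the 5′-most annotated start. Capitals mark matches to 6 short motifs searched on both strands. A GATA match is the word AGATAA, the alternative word TGATAA, or the same pair ending in a different base, which are the word AGATAG and the alternative word TGATAG. An ETS match is the word AGGAAG or otherwise the word CGGAAG, and a KLF match is CCNCACCC with any base at N. RUNX stands for the word TGTGGT and AP-1 for the word TGANTCA. An E-box match is the word CAGCTG or otherwise the word CAGATG. The windows are chr1:132359322-132359471 (minus strand), chr10:43298825-43298974 (plus strand) and chr2:102741823-102741972 (minus strand), and none overlaps an annotated exon.
Cd55 upstream: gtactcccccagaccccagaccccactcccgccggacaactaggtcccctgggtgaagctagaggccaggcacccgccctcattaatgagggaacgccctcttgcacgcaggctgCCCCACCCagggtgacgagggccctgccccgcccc
Cd24a upstream: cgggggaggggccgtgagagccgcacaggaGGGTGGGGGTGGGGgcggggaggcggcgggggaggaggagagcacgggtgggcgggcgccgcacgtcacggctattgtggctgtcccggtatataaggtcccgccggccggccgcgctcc
Cd44 upstream: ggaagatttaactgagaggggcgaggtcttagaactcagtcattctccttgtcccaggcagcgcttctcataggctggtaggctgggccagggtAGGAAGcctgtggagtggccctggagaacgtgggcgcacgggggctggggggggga
Cd55 has 1 KLF match, Cd24a has 2 that share bases, and Cd44 has 1 ETS match. A KLF word is found in 11.1% and an ETS word in 29.3% of all such 150-base windows, so the matches describe the sequence and mark no known site.

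Tetraspanins, membrane proteins that organise integrins and receptors into patches, had a start open in all 4 lists in 5 of 7 genes, a larger share than any group but the 4 other genes. Cd151, a partner of laminin-binding integrins, lay at 99.0, 93.3, 96.4 and 97.3. Cd37, a leukocyte tetraspanin, lay at 97.8, 93.9, 92.5 and 96.1, and Cd81, a widely expressed tetraspanin, at 90.5, 97.2, 88.0 and 99.4. Cd82 was lower, at 58.3, 86.7, 78.4 and 88.7. In these 4 genes the states overlap. For Cd81 the strongest peaks of G1E-ER4 list 2 and G1E list 2 are centred on the start of the neighbour Tssc4 and only reach the window of the last annotated Cd81 start. At the first start of Cd81 the lists had peaks at 63.8, 90.8, 88.0 and 83.4, that of G1E-ER4 list 1 having its summit 1935 bp upstream. Cd63, a tetraspanin of lysosomes and granules, ranked higher in both G1E-ER4 lists, at 59.7 and 76.2 against 43.5 and 35.4 in G1E. Its peaks were not all at one place: the summit of G1E-ER4 list 1 lay 1045 bp upstream of the first start, and those of the other lists near a second start inside the gene. Cd9, a platelet and progenitor tetraspanin, had only a weak peak, at 5.46 in G1E list 1, and Cd53, a pan-leukocyte one, had none.

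Among genes of antigen presentation and costimulation, 4 of 8 were open in all 4 lists (50.0%, against 52.4% of all genes), not always at the first start. Cd274, a ligand that inhibits T cells, lay at 88.5, 91.2, 90.6 and 93.1, with the start of 5033414D02Rik within 1 kb of its own. Cd276, another checkpoint ligand, lay at 90.7, 78.7, 86.3 and 83.8, in each list at a start inside the gene rather than at the first. Cd74, the invariant chain of class II molecules, lay at 89.1, 67.1, 76.5 and 83.4, with summits 1154 to 1215 bp into the gene, and Cd80, which activates T cells through Cd28, at 73.1, 45.3, 67.4 and 85.7. The states overlap for all 4. Cd83, a marker of mature dendritic cells, had no peak in G1E list 2 and lay at 41.6, 73.9 and 47.0 in the others. Cd70 and Cd40 had a start peak in G1E-ER4 list 2 alone, at 42.8 and 1.43, and Cd86 had none.

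The leukocyte-wide group held the clearest G1E start. Cd52, which encodes a short lipid-anchored glycopeptide of lymphocytes and other leukocytes, had no start peak in either G1E-ER4 list and lay at 80.9 and 89.8 in the G1E lists. It was the 1 CD gene (1.19%) with a start peak in both G1E lists and neither G1E-ER4 list, against 0.804% of all genes. The summits were 68 and 73 bp upstream of the start, 5 bp apart. A region in all 4 lists inside the gene (chr4:133647829-133649873), at 75.5, 84.4, 78.1 and 83.3, ends just short of the 1 kb window. With a window of 2000 bp Cd52 therefore no longer had the G1E pattern, and its difference moved from -85.4 to -43.2. Cd97, an adhesion receptor of the G protein-coupled family, lay at 96.3 and 92.2 for G1E-ER4 against 91.7 and 90.9 for G1E. Those values do not overlap, but the summit of G1E-ER4 list 1 lay 1831 bp upstream of the first start, in a peak that reaches into the window, and the difference was 0.943 without that list against 2.99 with it. Cd38, Cd48, Cd84 and Cd200 had no start peak in any list. The sequence upstream of Cd52 (chr4:133650998-133651147, mm9, minus strand) is shown because both G1E summits fall in it.
Cd52 upstream: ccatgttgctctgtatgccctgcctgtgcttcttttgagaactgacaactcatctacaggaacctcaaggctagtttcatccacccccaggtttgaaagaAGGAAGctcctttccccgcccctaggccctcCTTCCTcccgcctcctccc
It has 2 ETS matches, in capitals, and none of the other motifs.

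Among B cell genes, Cd72 ranked high in G1E and low in G1E-ER4, while Cd79b and Cd22 had weak peaks in G1E-ER4 alone. Cd72, an inhibitory lectin of B cells, lay at 24.7 and 26.8 for G1E-ER4 against 93.0 and 89.2 for G1E. The groups are far apart, and both G1E summits are at the same base, 1 bp from a start, where G1E-ER4 list 1 has no peak and the nearest summit of list 2 is 309 bp upstream. The G1E-ER4 list 1 value belongs to a peak at another start of the gene, and counting the first start alone widened the difference from -65.3 to -77.7. Cd79b, a signalling chain of the B cell receptor, lay at 47.0 and 50.9 in G1E-ER4 and had no G1E start peak. Cd22, an inhibitory receptor that binds sialic acid, lay at 36.6 and 24.2 in G1E-ER4, at different places in the lists, and had none in G1E. Cd79a, the other signalling chain, had a peak in G1E-ER4 list 2 alone, at 15.7, and Cd180 had none. The windows upstream of Cd72 (chr4:43467501-43467650, minus strand) and Cd79b (chr11:106176077-106176226, minus strand) are shown as the B cell starts that differ in opposite directions.
Cd72 upstream: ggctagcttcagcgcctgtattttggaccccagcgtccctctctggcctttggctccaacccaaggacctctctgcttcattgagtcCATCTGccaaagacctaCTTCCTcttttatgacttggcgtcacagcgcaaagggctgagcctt
Cd79b upstream: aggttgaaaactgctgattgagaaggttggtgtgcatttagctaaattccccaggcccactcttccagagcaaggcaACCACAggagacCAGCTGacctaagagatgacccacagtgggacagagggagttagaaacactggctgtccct
Cd72 has an E-box and an ETS match, and Cd79b a RUNX and an E-box match. An E-box word is found in 14.0% and a RUNX word in 7.65% of all such windows.

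Most T and NK cell genes had no start open in every list. No start peak at all was found for 7 of 18 (38.9%), against 38.1% of CD genes and 27.3% of all genes. Cd3e, Cd8a, Cd28, Cd96, Cd226, Cd69 and Cd40lg had no start peak in any list. Cd4 lay at 3.34 in G1E list 1 alone. Cd3d and Cd3g, divergent neighbours that encode chains of the T cell receptor complex, share 1 peak at 53.6 in G1E-ER4 list 2, and Cd3g had further peaks at 4.20 in G1E-ER4 list 1 and 1.15 in G1E list 2. Cd247, the zeta chain of that complex, lay at 84.2, 89.6 and 74.9 at a start inside the gene, with no peak in G1E-ER4 list 1, and Cd244, an NK cell receptor, at 74.8, 56.2 and 59.1, again with none in that list. Cd2, an adhesion receptor, had peaks in both G1E-ER4 lists, at 44.6 and 3.78, that do not overlap each other and lie at starts inside the gene, and none in G1E.

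Cd5 and Cd160 were the T and NK cell genes open in all 4 lists. Cd5, an inhibitory receptor of T cells and some B cells, lay at 16.3 and 17.9 for G1E-ER4 against 65.4 and 55.6 for G1E. The states do not overlap, and the G1E-ER4 list 1 peak is inside the gene, its summit 1287 bp past the start. Cd160, an NK and T cell receptor, lay at 93.4 and 89.6 for G1E-ER4 against 80.7 and 79.3 for G1E, but these peaks belong to a start inside the gene. At the first start, which is close to that of Pdzk1, Cd160 lay at 51.1 and 42.8 for G1E-ER4 and at 50.4 in G1E list 2, with no peak in G1E list 1. With a 500 bp window its difference of 11.5 became -9.61. The window upstream of Cd5 (chr19:10813465-10813614, mm9, minus strand) is shown beside those of Cd52 and Cd72, 2 other starts that ranked higher in G1E.
Cd5 upstream: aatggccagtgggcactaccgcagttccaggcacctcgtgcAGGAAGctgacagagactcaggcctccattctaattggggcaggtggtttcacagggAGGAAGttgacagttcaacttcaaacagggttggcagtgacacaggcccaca
It has 2 ETS matches. Of the 7 upstream windows shown here, 4 hold an ETS word, and they were picked after their peak values were known.

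Myeloid and dendritic cell genes were the group with fewest open starts. Cd300lg, a mucin-like receptor of endothelium, was the one gene open in every list, at 84.0 and 75.8 for G1E-ER4 against 86.0 and 84.5 for G1E. That site has its summits 1124 to 1145 bp upstream of the start, and at the start itself only the G1E lists had a peak, at 35.9 and 23.7. Cd68, a lysosomal protein of macrophages, had no peak in G1E-ER4 list 1 and lay at 39.0, 68.7 and 83.0 in the others. Cd302, a lectin of phagocytes, lay at 71.3, 9.91 and 55.5, and Cd177, a neutrophil antigen, at 30.3, 39.5 and 18.2, both with no peak in G1E list 2. In the tandem clusters, 5 of 7 Cd209 genes, lectins of dendritic cells, and 5 of 8 Cd300 genes, paired receptors of myeloid cells, had no start peak in any list. Among the other genes, Cd2ap, an adaptor bound to the Cd2 tail, lay at 87.9, 93.4, 94.4 and 93.1 and Cd320, the receptor of the cobalamin carrier protein, at 82.5, 92.6, 92.4 and 89.4. Cd248, a stromal glycoprotein, lay at 92.6, 92.4, 93.2 and 64.8, the G1E-ER4 list 2 value being that of a wide peak with its summit 4015 bp away. Cd109, a lipid-anchored relative of alpha-macroglobulins, had different peaks in the G1E-ER4 lists, at 27.1 and 68.8, and none in G1E.

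**Figure D2:**
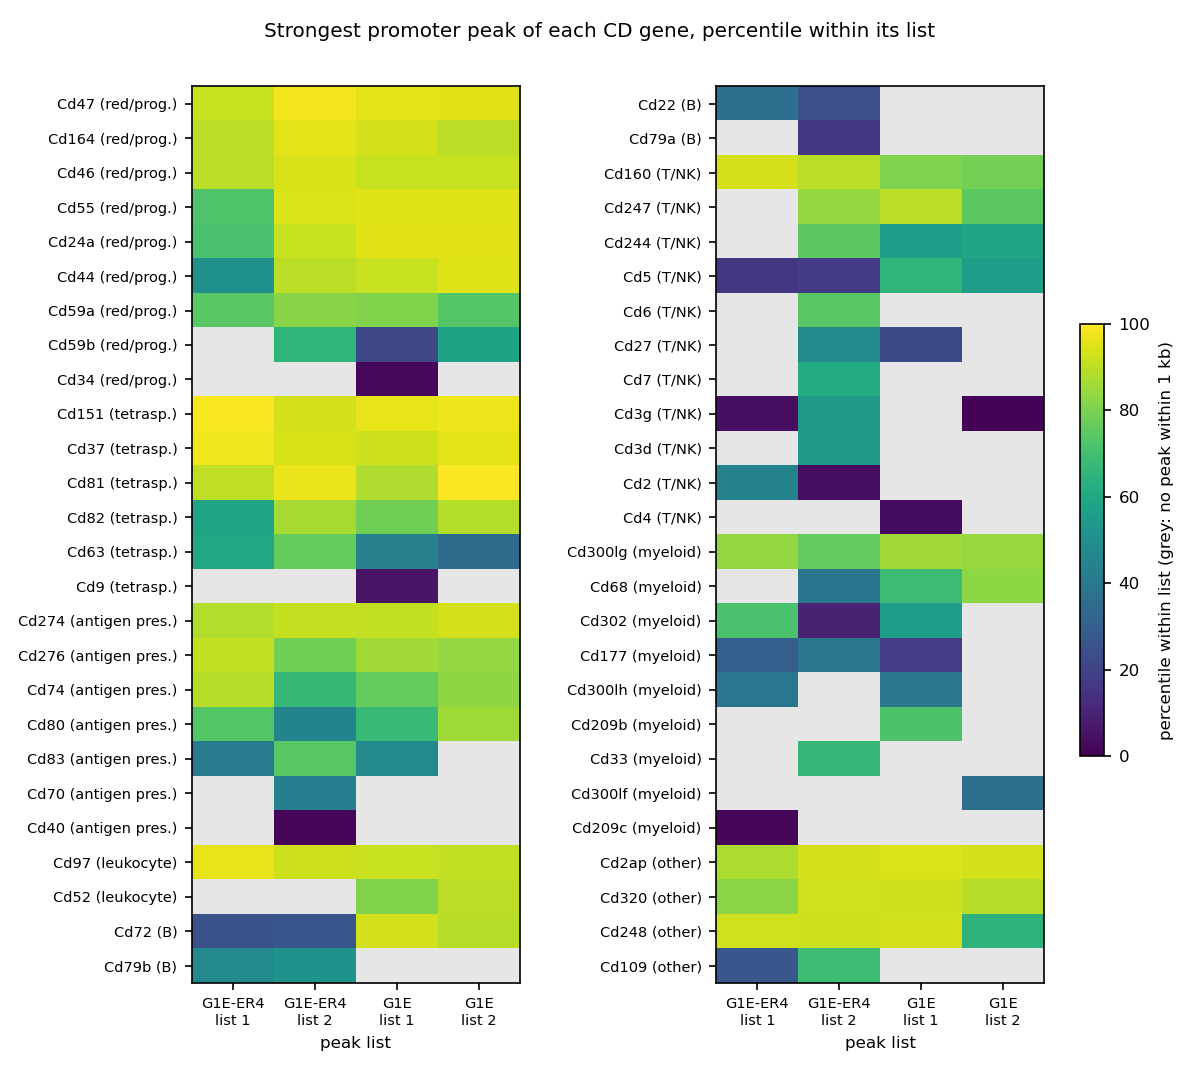
Percentile of the strongest peak within 1 kb of a start (colour, 0 to 100) in each of the 4 lists (columns) for the 52 CD genes with such a peak in any list (rows, with the group in brackets), grey where there is none. Bright rows such as Cd47, Cd151 and Cd2ap run across all lists, whereas most lymphoid and myeloid rows hold grey cells.

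Between the states, 28 CD genes had a start peak in 1 to 3 lists, and 5 of them followed the states. Cd2, Cd22, Cd79b and Cd109 had one in both G1E-ER4 lists and neither G1E list, 4 genes (4.76%) against 1.18% of all genes, and Cd52 had the reverse pattern. A further 13 genes had a start peak in a single list, 7 of them in G1E-ER4 list 2, 8 in 3 lists and 2 in 1 list of each state. G1E-ER4 list 2 has the widest peaks (median 836 bp, against 520 to 646 bp in the other lists). It also has a start peak at the most genes of all (15004 of 22380). Whether either bears on the 7 genes was not tested, and the share of all genes with a start peak in a single list is not given here. With a list left out the rule asks for fewer lists, so the small counts of genes that followed the states can only stay or rise. Without G1E-ER4 list 1 the G1E-ER4 pattern was held by 11 genes and without G1E list 1 by 7. The G1E pattern was held by 5 without G1E-ER4 list 2 or G1E list 2 and by 2 without G1E list 1. Of the 4 G1E-ER4 genes, Cd79b had overlapping peaks in both lists, while those of Cd2, Cd22 and Cd109 were at different places. Restricted to the strongest 50% of each list, the G1E-ER4 pattern was held by Cd63 and the G1E pattern by Cd52, Cd5, Cd68 and Cd72. The shares of all genes with either pattern were not computed at that cut, so these counts have nothing to be set against.

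Ranks at the starts open in every list overlapped between the states for 15 of 24 CD genes. Both G1E-ER4 values were above both G1E values for 3, Cd63, Cd97 and Cd160 (12.5%, against 15.8% of all genes open in every list). Both were below for 6, Cd72, Cd5, Cd44, Cd24a, Cd55 and Cd300lg (25.0%, against 13.1%). With a list left out, 1 value need only lie outside 2, so these counts can only stay or rise. The genes compared change too, to 28 and 24 without G1E-ER4 list 1 or 2 and to 25 and 27 without G1E list 1 or 2. Without G1E-ER4 list 1 there were 10 above and 11 below, and without G1E-ER4 list 2 there were 7 and 13. Without G1E list 1 there were 6 and 10, and without G1E list 2 there were 6 and 8. The shares of all genes were not computed with a list left out. The differences of means ran from -65.3 for Cd72 and -43.4 for Cd5 to 28.5 for Cd63. Without G1E-ER4 list 1 they were -64.3, -42.6 and 36.8. Set among the starts open in every list rather than among all peaks, Cd72 stood at ranks 1.77 and 0.68 for G1E-ER4 against 44.8 and 27.1 for G1E. On that scale the gaps of Cd5 and Cd63 were small. Cd5 stood at 1.04 and 0.375 against 8.19 and 7.43, a difference of -7.1, and Cd63 at 6.97 and 9.23 against 2.65 and 3.17, a difference of 5.2.

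**Figure D3:**
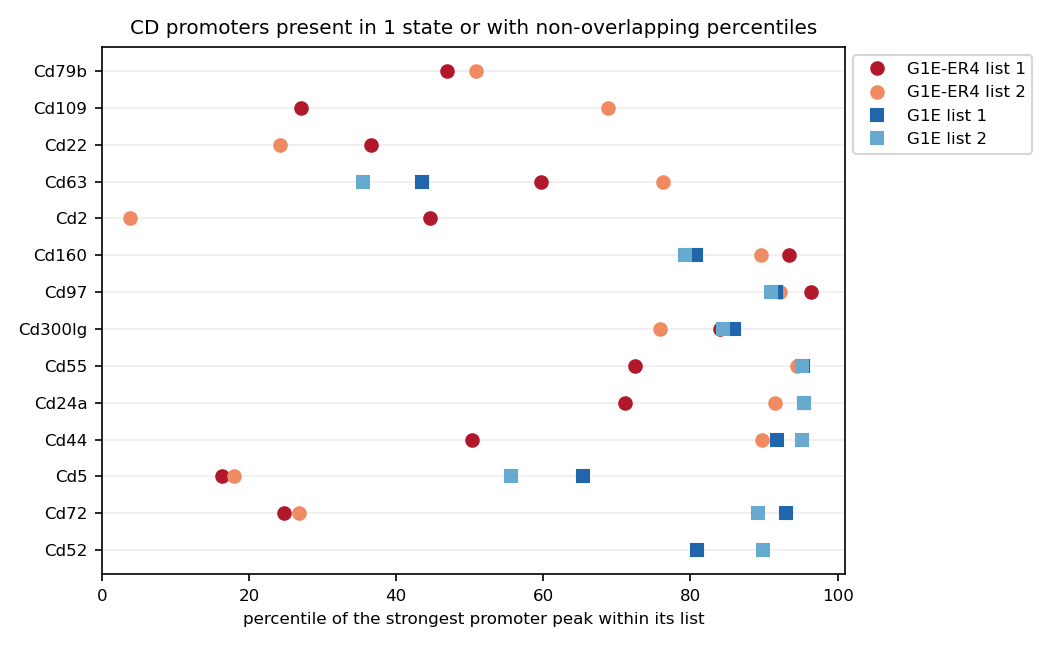
Percentile of the strongest start peak within its list (horizontal axis) for each CD gene present in 1 state or with values that do not overlap between the states, circles for G1E-ER4 lists and squares for G1E lists, with no mark where a list has no peak. Cd52 and Cd72 show the widest gaps towards G1E, and Cd79b, Cd109 and Cd22 have marks for G1E-ER4 alone.

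**Figure D4:**
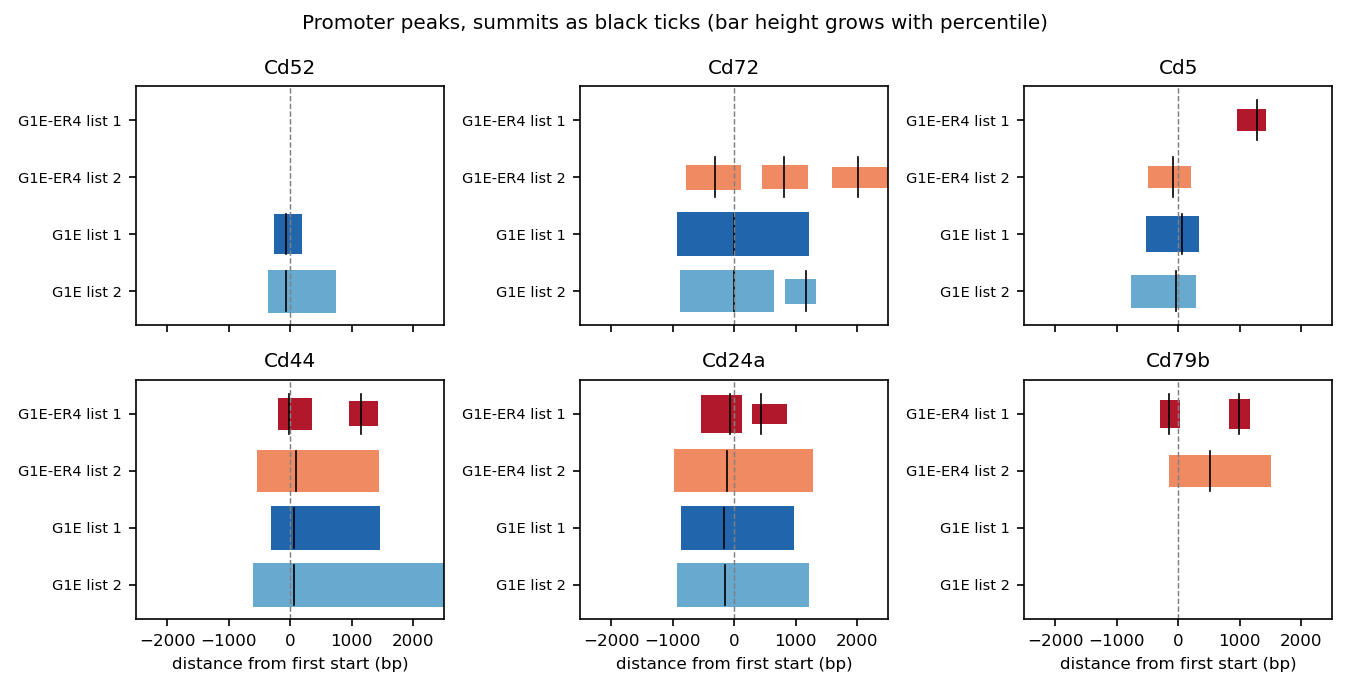
Peaks within 1 kb of any start of 6 CD genes, drawn by distance from the 5′-most start (bp, negative upstream) with 1 row per list, bar height growing with percentile and black ticks at summits. Cd52 has no G1E-ER4 bar, Cd79b has no G1E bar, and the G1E-ER4 list 1 peaks of Cd72 lie at another start beyond the plotted range.

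Across gene bodies and 10 kb on each side, CD genes held about as many open regions as other genes. Peaks overlapping by at least 1 bp were merged, giving 522 regions near CD genes, 13 of them near more than 1 member. The median was 5 regions per gene, against 6 for all genes, and 11 CD genes (13.1%) had none, against 15.1%. Of the regions, 108 (20.7%) were in all 4 lists, against 17.6% around all genes, and 279 (53.4%) were in a single list, against 56.3%. The peaks summed over CD genes were 315 and 308 for G1E-ER4 and 315 and 313 for G1E. Cd247 had most regions with 30, followed by Cd80 with 21, Cd82 with 20, Cd47 with 17, Cd5 and Cd300lg with 16 and Cd44 and Cd109 with 15. The list is mixed in role, from a T cell receptor chain to the self-marker Cd47.

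**Figure D5:**
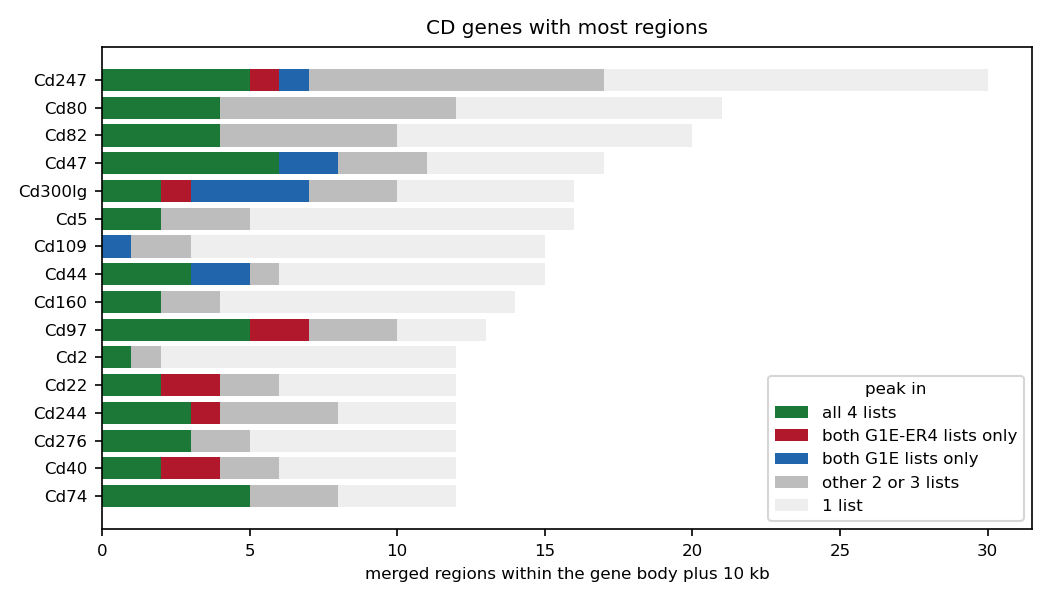
Merged regions within the gene body plus 10 kb (horizontal axis, number of regions) for the 16 CD genes with most, divided by the lists that hold a peak. Cd247 has 30 regions, and regions of both lists of 1 state (red and blue) are a small portion of every bar.

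Regions that followed the states were few and, like most regions near CD genes, lay mostly outside the starts. In both G1E-ER4 lists and neither G1E list there were 17 (3.26%, against 2.59% of regions around all genes), near 13 genes (15.5%, against 15.7%). In both G1E lists and neither G1E-ER4 list there were 12 (2.30%, against 3.75%), near 8 genes (9.52%, against 20.1%). With a list left out the rule asks for fewer lists, so these counts can only stay or rise. Such a rise is no measure of stability, and the shares around all genes were not computed that way. Without G1E-ER4 list 1 there were 86 G1E-ER4-only and 20 G1E-only regions, and without G1E-ER4 list 2 there were 107 and 36. Without G1E list 1 there were 22 and 78, and without G1E list 2 there were 24 and 66. At a CD start were 1 of the 17 G1E-ER4-only and 2 of the 12 G1E-only regions, and at the start of another gene 1 and 0. Of all 522 regions near CD genes, 61 (11.7%) were at a CD start and 40 (7.66%) at that of another gene. By group, the red cell, progenitor and complement genes had 4 G1E-only and 0 G1E-ER4-only of 75 regions, and the B cell genes 0 and 5 of 46. On chromosome 7, 6 of 55 regions near 8 CD genes were G1E-ER4-only (10.9%) and 0 G1E-only, against 5.99 and 1.76% around all genes of that chromosome. Away from chromosome 7 the shares were 11 and 12 of 467 (2.36 and 2.57%). The balance of the lists on chromosome 7 moves with the B cell count, through Cd22 and Cd79a, and its part in the result was not tested.

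Of the 8 G1E-only regions with the highest ranks, Cd44 and Cd47 held 4. After the Cd52 start came an exon of Cd109 (chr9:78483184-78486103), at 57.8 and 82.0 in the G1E lists. Cd44 had 2 in introns, chr2:102655321-102656157 at 68.5 and 64.2 and chr2:102726296-102727672 at 48.7 and 69.3. Cd247 had 1 in an intron (chr1:167770474-167771519), at 53.5 and 58.4. Cd47 had 1 upstream (chr16:49848111-49848986), at 49.4 and 57.0, and 1 in an intron (chr16:49888225-49888762), at 70.5 and 0.328. In the last the G1E lists themselves stand far apart. A region inside Cd300e and upstream of Cd300lh (chr11:114913544-114913918) lay at 37.6 and 37.0. The 200 bases around the summit are shown for 3 of these, on the plus strand of mm9 and outside exons: chr2:102655473-102655672, chr16:49848275-49848474 and chr1:167770967-167771166.
Cd44 intron: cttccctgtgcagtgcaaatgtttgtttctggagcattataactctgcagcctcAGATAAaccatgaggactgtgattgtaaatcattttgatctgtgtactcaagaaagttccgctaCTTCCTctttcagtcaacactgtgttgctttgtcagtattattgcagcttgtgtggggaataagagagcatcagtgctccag
Cd47 upstream flank: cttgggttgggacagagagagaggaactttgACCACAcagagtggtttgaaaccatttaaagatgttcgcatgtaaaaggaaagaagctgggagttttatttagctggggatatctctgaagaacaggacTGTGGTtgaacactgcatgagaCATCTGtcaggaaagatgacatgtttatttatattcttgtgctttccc
Cd247 intron: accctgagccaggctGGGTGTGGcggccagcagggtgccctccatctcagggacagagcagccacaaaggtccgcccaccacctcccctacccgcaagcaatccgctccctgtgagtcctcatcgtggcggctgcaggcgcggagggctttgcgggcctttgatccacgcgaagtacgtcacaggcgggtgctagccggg
The Cd44 window has a GATA and an ETS match, the Cd47 window 2 RUNX matches and an E-box match, and the Cd247 window a KLF match.

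G1E-ER4-only regions were 17 of the 522 near CD genes (3.26%), against 2.59% of regions around all genes. There were 0 of 75 near red cell, progenitor and complement genes and 0 of 26 near the 4 other genes. At a share of 2.59%, few would be met in sets of this size. The 8 with the highest ranks therefore hold none of either group. The first was downstream of Cd180, a B cell relative of Toll-like receptors, inside an intron of the neighbour Mast4 (chr13:103529833-103531277), at 51.7 and 71.7 in the G1E-ER4 lists. A region upstream of Cd63 (chr10:128340350-128341591) lay at 62.0 and 55.8. The Cd79b start region (chr11:106174573-106176369) followed, and a region upstream of Cd97 (chr8:86268079-86268503) lay at 38.3 and 54.5. Cd22 had 1 downstream, nearer to Ffar1 (chr7:31648363-31649221), at 29.2 and 57.4, and 1 in an intron (chr7:31651443-31653342), at 45.3 and 21.8. Downstream of Cd37, in an intron of Tead2 (chr7:52479223-52481339), a region lay at 65.2 and 17.1, and upstream of Cd4 (chr6:124847815-124849113) a region lay at 70.7 and 9.36. In the last 2 the G1E-ER4 lists are far apart. Summit windows of 200 bases are shown for the regions outside exons of 4 genes, on the plus strand of mm9: chr13:103530301-103530500, chr10:128341017-128341216, chr8:86268163-86268362 and chr6:124847956-124848155.
Cd180 downstream flank: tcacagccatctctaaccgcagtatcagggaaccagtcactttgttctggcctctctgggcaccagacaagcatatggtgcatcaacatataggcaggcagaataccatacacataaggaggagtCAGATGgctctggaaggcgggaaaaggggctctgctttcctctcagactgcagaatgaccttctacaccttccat
Cd63 upstream flank: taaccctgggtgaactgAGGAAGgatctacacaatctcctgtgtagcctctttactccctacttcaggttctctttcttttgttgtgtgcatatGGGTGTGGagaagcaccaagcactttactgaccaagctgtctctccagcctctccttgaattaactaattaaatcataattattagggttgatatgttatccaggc
Cd97 upstream flank: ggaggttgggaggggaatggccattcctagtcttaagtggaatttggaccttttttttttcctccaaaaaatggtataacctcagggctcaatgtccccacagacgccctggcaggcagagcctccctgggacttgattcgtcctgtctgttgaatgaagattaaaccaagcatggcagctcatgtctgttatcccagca
Cd4 upstream flank: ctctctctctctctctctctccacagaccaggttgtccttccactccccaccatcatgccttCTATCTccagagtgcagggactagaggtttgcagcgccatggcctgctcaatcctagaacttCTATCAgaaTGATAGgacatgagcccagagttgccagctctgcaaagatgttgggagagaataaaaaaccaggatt
The Cd4 window has 3 GATA matches, the Cd63 window an ETS and a KLF match and the Cd180 window an E-box match. None of the motifs is in the Cd97 window.

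Many of the strongest regions near CD genes belong to the starts of other genes. Of 43 regions at percentile 80 or above in every list, 9 were at a CD start, 19 at the start of another gene, 8 in introns, 6 between genes and 1 in an exon. Of the 108 regions in every list, 19 were at a CD start and 22 at that of another gene. Some strong regions between genes are near members whose own starts had no peak or weak ones. Downstream of Cd36, whose start had no peak, a region (chr5:17282312-17282844) lay at 99.5, 87.5, 87.2 and 89.4. Upstream of Cd2, whose start peaks were in the G1E-ER4 lists alone, a region (chr3:101098909-101101934) lay at 94.8, 90.02, 88.9 and 89.1. Upstream of Cd8a, whose start had no peak, a region (chr6:71313826-71314843) lay at 100, 72.9, 99.99 and 99.8, so it is below 80 in G1E-ER4 list 2 and not among the 43. The states overlap in the Cd36 and Cd8a regions, and G1E-ER4 is above G1E in the Cd2 region. Upstream of Cd209a (chr8:3754075-3754950) every list was above 99.9, but some of its 20-base words recur up to 12035 times in the genome and 79.6% are unique, and a Cd44 intron region at 99.9, 94.7, 99.7 and 99.9 (chr2:102669202-102669892) had 42.0% unique words. Tags that match several places were not removed by the authors, and the part of this in those ranks was not tested. Over the 522 regions the median was 97.2% unique words. The window around the summit of the Cd36 region (chr5:17282477-17282676, mm9, plus strand) is shown as the strongest site of a red cell gene with a closed start.
Cd36 downstream flank: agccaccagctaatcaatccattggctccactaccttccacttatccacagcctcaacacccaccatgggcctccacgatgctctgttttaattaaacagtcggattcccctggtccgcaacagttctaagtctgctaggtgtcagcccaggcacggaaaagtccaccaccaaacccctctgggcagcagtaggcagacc
None of the 6 motifs is in it.

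CD starts differed from other starts in base composition. Within 1000 bp around the 5′-most start, 12 of 84 CD genes (14.3%) were rich in CpG (observed to expected CpG of at least 0.6 and GC of at least 50%), against 44.2% of all genes. None of the 24 T, NK and B cell genes was CpG-rich, against 3 of 11 red cell, progenitor and complement genes, namely Cd47, Cd164 and Cd24a. Among CpG-rich CD genes 8 of 12 (66.7%) were open in every list, against 83.8% of all CpG-rich genes. Among the rest 16 of 72 (22.2%) were, against 27.5%. The share with no start peak in any list went the other way: 32 of 72 CD genes that were not CpG-rich (44.4%), against 48.0% of all such genes, and 0 of 12 CpG-rich ones, against 1.11%. Of the 18 T and NK cell genes, none CpG-rich, 7 had no start peak (38.9%) and 2 were open in every list (11.1%). In the 200 bp around summits of the CD regions, GATA words were in 30.3% (30.4% of all merged regions of the genome), ETS in 37.5% (32.2%), KLF in 12.5% (10.3%), RUNX in 15.1% (16.7%), AP-1 in 6.51% (6.94%) and E-box in 29.1% (28.4%). These are counts of letters, and no test of a difference was made.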

How the data were processed

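DNase-seq peak lists of 2 mouse cell samples were used, 2 lists per sample. Per the series design text, DNase I ends were sequenced as 20-base tags and aligned by the authors to mm9 with Bowtie, tags those matching several places being retained, and SAMtools and F-seq gave a density from which peaks were taken by a gamma fit. Tool versions, peak threshold and read number: not given in the sources used here. The deposited lists give each peak's F-seq signal, turned here into a percentile within its list, and its summit offset. Genes and starts are those of GENCODE vM1 on NCBIM37 (mm9), and coordinates are 1-based. Lists were grouped by the labelled cell. With 1 sample per state there is no test, so states were compared by presence and by whether percentiles overlap. The members and lists were chosen with earlier results of these data known. The rule for genes named with values takes all red cell, progenitor and complement genes, the 4 with the highest mean start percentile in every other group, genes or regions of 1 state (the 8 with the highest mean per state), the 8 widest non-overlapping differences, the 8 genes with most regions and the tandem clusters. Other genes were named after their values were seen, as were the alternatives of 1 start per gene, rank among starts, genes outside chromosome 7 and genes without another start within 1000 bp. The windows, overlaps and lists were also varied. Values of some genes are not reported here. The steps were tested on simulated data. Python 3.11.15, numpy 2.4.6 and pandas 2.3.3 were used.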

Additional observations from a re-analysis of the deposited data

How the results depend on the processing

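No paired analysis was possible because each state is 1 sample, so the groups share fewer than 2 replicate numbers. No test was made, and a count is called moved below when it left 1.5 times its main value, and a gene's difference when it moved by more than the spread between lists (1 SD). Depth is unknown, so a missing peak may lie just under a list's end. Of the settings tried on counts and shares, 71 values stayed within their limit and 54 did not, and for single genes 92 stayed, 26 moved and 3 turned sign. With a start window of 500 bp, or with the summit in the window, the G1E-only starts numbered 2, and with 2000 bp 0, as Cd52 then met a region of all 4 lists. In the strongest 50% of each list there were 4 G1E-only and 1 G1E-ER4-only starts, 3 G1E-ER4-only regions and 3 genes with one. With 1 start per gene there were 2 G1E-ER4-only starts. With the gene body alone there were 58 regions in every list, 6 G1E-ER4-only regions and 6 genes with one, and with 50 kb on each side 306, 51 and 30, with 46 G1E-only regions near 34 genes. Outside chromosome 7 there were 11 G1E-ER4-only regions (a setting added after seeing the data). With the mean of all start peaks, 5 genes ranked higher in G1E-ER4, Cd160 turned to -13.2 and Cd300lg to 22.4 (G1E-ER4 minus G1E), and with a 500 bp window Cd160 turned to -9.61. Motif shares in windows of 100 and 400 bp were 19.9 and 47.1% for GATA, 21.6 and 58.6% for ETS, 7.28 and 20.9% for KLF, 7.28 and 28.9% for RUNX, 3.45 and 10.9% for AP-1 and 15.1 and 45.8% for E-box, because longer windows hold more words. Leaving out each list in turn relaxed every rule, so the counts that follow could only stay or rise. Starts in every list numbered 24 to 28, in none 33 to 39, G1E-ER4-only 5 to 11 and G1E-only 1 to 5. Regions in every list numbered 113 to 132. There were 22 to 107 G1E-ER4-only regions near 16 to 43 genes and 20 to 78 G1E-only regions near 14 to 42 genes. Starts ranked higher in G1E-ER4 numbered 6 to 10 and in G1E 8 to 13.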

Other observations

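CD antigens that carry other symbols, chosen after earlier results of these data were known, had open starts in about the share of all genes. Of 30 such genes, 15 (50.0%) had a start peak in all 4 lists, against 52.4% of all protein-coding genes, and 8 had none. Kit, the stem cell factor receptor, lay at percentiles 85.2 and 96.5 for G1E-ER4 and 98.4 and 98.1 for G1E. Bsg, the carrier of a blood group antigen on red cells, lay at 99.1, 98.7, 99.4 and 98.05, and Tfrc, the transferrin receptor, at 74.3, 98.1, 95.2 and 94.6. Of the 15, Flt3 alone ranked higher in both G1E-ER4 lists, and Kit and Icam1 ranked higher in both G1E lists. Of all genes open in every list, 15.8% ranked higher in both G1E-ER4 lists and 13.1% in both G1E lists. The pan-leukocyte phosphatase Ptprc and the lymphocyte genes Il7r, Il2ra, Ms4a1 and Ctla4 had no start peak in any list.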
